A study of Mus musculus with 4 samples.

Results

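Amino acid transporter genes were taken as the genes of the solute carrier families SLC1, SLC3, SLC7, SLC36, SLC38 and SLC43, chosen by symbol alone and without Slc7a11. The deposited table held 41 of them among its 27179 genes. They were followed in group 2 innate lymphoid cells (ILC2s), lymphocytes without antigen receptors, sorted from the large intestine of WT C57BL/6 mice. All cells had first been cultured for 5 days in IMDM with the cytokines IL-33, IL-25, IL-7, and IL-2 at 10 ng/mL each, so the vehicle-treated cells were cytokine-activated cells and not resting ones. They then received vehicle or 100 μM deoxycholic acid (DCA), a secondary bile acid that gut bacteria make from cholic acid. The design text gives 16 hours of treatment and the methods give 24 hours. For C57BL/6J mice the methods give 6 to 8 weeks of age, and name both sexes in 1 place and males alone in another, while 6 to 14 weeks is given for the mice of the study as a whole. There were 2 vehicle and 2 DCA libraries, and nothing states that they came from separate cultures or animals, so p-values measure the spread between these libraries.

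The libraries held 35838342 and 26564059 counts with vehicle and 32102232 and 244165712 counts with DCA, the last being far deeper than the others. The transporter genes took between 0.106% and 0.116% of a library's counts. Levels are given as CPM, counts scaled to library size with the TMM method. Where a gene had 0 counts, the limit that counting error allows, 3 counts, stood at 0.0820 CPM for vehicle replicate 1, 0.115 CPM for vehicle replicate 2, 0.0928 CPM for DCA replicate 1, and 0.0125 CPM for DCA replicate 2. All 12 ILC2 markers passed the filter of a mean of 1 CPM, and their summed level was 15450 to 16870 CPM with vehicle and 17750 to 20050 CPM with DCA. Of the markers of T cells and of macrophages and monocytes, Cd4, Cd8a, and Csf1r were at 0 in all 4 libraries, but others had counts, and the lists summed to 15.5 to 34.7 CPM and 7.30 to 24.7 CPM. Values below are given in the order vehicle replicate 1, vehicle replicate 2, DCA replicate 1, DCA replicate 2.

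Amino acids cross membranes through carriers that differ in what they move and in what drives them. Several SLC7 light chains work only when joined to a heavy chain, most often Slc3a2 (CD98), and exchange 1 amino acid for another, whereas SLC38 and SLC1 carriers use the sodium gradient to concentrate neutral or acidic amino acids. SLC36 carriers move small amino acids with protons, and several carriers sit on the lysosome rather than the cell surface. Activated lymphocytes are known to raise the uptake of leucine, glutamine, and arginine as they grow and divide.

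Of the 41 genes, 30 had an entry in the RefSeq promoter table (GRCm38.p6), whose windows of 300 bases run from upstream of each transcription start to 50 bases past it. Genes without an entry were Slc1a5, Slc36a2, Slc38a1, Slc38a3, Slc43a3, Slc7a12, Slc7a13, Slc7a2, Slc7a3, Slc7a4, and Slc7a5. The windows were searched on both strands for TGATGNAA (reverse TTNCATCA), the core of the element bound by ATF4 with C/EBP partners, and for CACGTG, the palindromic E-box bound by MYC. A gene with several windows counted as a match if any of them held the motif. The ATF4 element was present in 2 of the 30 genes, Slc7a7 and Slc1a4 (6.67%), and in 4.51% of all 27025 genes in the promoter table. The E-box was present in 7 of the 30 genes (23.3%), namely Slc1a6, Slc1a7, Slc36a1, Slc38a5, Slc38a7, Slc43a1, and Slc7a14, and in 8.09% of all genes in the table. The windows below belong to the genes that were at 0 in both vehicle libraries and reached the DCA libraries with the most counts, and to Slc38a2, the most abundant gene whose DCA libraries both lay above the vehicle libraries. Capitals mark a motif match. Matches describe the letters of a window and show no binding. The Slc7a7 window shown, chr14:54417895-54418194 on the minus strand, held an ATF4 element that began 141 bases before the start and another that began 1 base before it. An overlapping Slc7a7 window held the second of these matches 243 bases before its own start. The other Slc7a7 windows, chr14:54409423-54409722, chr14:54410154-54410453, and chr14:54417630-54417929, held neither motif.
Slc7a7: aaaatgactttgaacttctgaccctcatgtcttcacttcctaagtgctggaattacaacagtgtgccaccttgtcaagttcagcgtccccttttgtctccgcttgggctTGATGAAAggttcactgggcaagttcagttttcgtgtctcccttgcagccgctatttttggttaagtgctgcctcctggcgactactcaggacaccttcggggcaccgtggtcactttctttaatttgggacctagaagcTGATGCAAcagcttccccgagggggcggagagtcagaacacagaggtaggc
The Slc1a4 window, chr11:20332664-20332963 on the minus strand, held the element in reverse, beginning 4 bases before the start.
Slc1a4: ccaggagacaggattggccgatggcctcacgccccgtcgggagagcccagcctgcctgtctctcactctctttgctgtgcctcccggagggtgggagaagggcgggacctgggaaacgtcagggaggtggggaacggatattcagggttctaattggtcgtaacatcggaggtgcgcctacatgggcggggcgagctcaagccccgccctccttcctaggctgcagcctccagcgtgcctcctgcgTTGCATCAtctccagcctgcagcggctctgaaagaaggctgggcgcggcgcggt
The Slc43a1 window, chr2:84840073-84840372 on the plus strand, held the E-box, beginning 64 bases before the start.
Slc43a1: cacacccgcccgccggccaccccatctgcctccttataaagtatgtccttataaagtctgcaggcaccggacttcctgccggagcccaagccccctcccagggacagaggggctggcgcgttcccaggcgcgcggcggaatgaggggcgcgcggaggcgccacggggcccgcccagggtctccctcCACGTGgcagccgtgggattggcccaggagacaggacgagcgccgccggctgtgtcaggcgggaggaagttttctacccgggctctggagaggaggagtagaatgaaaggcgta
The Slc38a2 window, chr15:96699679-96699978 on the minus strand, held neither run of letters. Sequence outside the windows was not searched, for this gene or the others.
Slc38a2: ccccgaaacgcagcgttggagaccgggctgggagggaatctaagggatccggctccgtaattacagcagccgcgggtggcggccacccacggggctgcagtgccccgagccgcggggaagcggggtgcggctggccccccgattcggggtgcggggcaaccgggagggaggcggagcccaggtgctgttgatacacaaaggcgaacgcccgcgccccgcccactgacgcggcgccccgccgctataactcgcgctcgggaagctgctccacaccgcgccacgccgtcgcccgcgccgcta

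Among the 41 transporter genes, 21 had a mean of at least 1 CPM and were tested, and 19 had counts in every library. A few carriers made up most of the family. Per kilobase of the longest transcript, the heavy chain Slc3a2 held 27.0%, 30.2%, 27.8%, and 33.4% of the summed level of the family. The 5 highest genes of each library together made up 72.9%, 72.2%, 71.2%, and 68.4%. Slc3a2, Slc1a5, and Slc38a1 were among them in every library, beside Slc38a10, Slc43a3, Slc7a6, or Slc7a8. The summed level itself was 267, 301, 297, and 283 CPM per kilobase, with the DCA libraries inside the range of the vehicle libraries. In bulk RNA, a lower value can come from fewer cells of a kind or from less RNA per cell, and the libraries cannot tell these apart. The order among genes depended on the length used. Slc38a2 was 6th by the longest transcript and 10th by the mean transcript length, and Slc38a1 was 5th per kilobase and 2nd without a length.

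**Figure D1:**
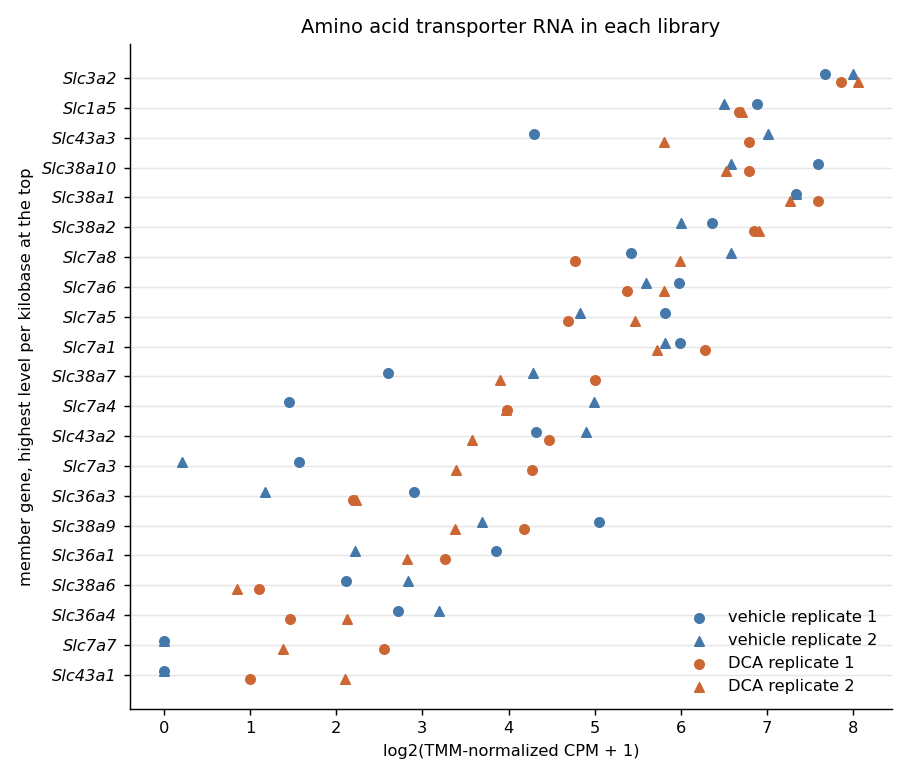
Level of each of the 21 tested transporter genes in each library, as log2(CPM + 1), with genes ordered by mean CPM per kilobase and circles and triangles for replicates 1 and 2. Slc3a2 had the highest level in every library, the vehicle replicates of Slc43a3 and Slc7a4 lay far apart, and Slc7a7 and Slc43a1 were at 0 in both vehicle libraries.

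The CD98 heavy chain and its more abundant light chains within the rule, Slc7a5, Slc7a6, and Slc7a8, had libraries that overlapped between treatments. Slc3a2 (chr19:8706882-8723369, GRCm38) anchors the light chains in the plasma membrane and was at 203, 256, 232, and 265 CPM. Its mean was 229.6 ± 37.6 CPM with vehicle and 248.7 ± 23.5 CPM with DCA (SD, n = 2), with vehicle replicate 2 between the DCA libraries. The log2 fold change, DCA over vehicle, was 0.12 (SE 0.19, edgeR quasi-likelihood test, adjusted p = 0.999).

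Slc7a5, the light chain that brings in leucine and other large neutral amino acids, was at 55.2, 27.4, 24.7, and 43.4 CPM, with both DCA libraries below vehicle replicate 1 and on either side of vehicle replicate 2. Its log2 fold change was -0.28 (SE 0.63, adjusted p = 0.999). Slc7a8 carries a wider range of neutral amino acids and was at 41.8, 94.97, 26.2, and 62.7 CPM. Replicate 2 exceeded replicate 1 under both treatments, and the log2 fold change was -0.62 (SE 0.85, adjusted p = 0.999). Slc7a6, which exchanges cationic for neutral amino acids, was at 62.1, 47.3, 40.4, and 55.1 CPM, with a log2 fold change of -0.20 (SE 0.29, adjusted p = 0.999). Both DCA libraries were below vehicle replicate 1 and on either side of vehicle replicate 2, as for Slc7a5.

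Slc7a7 is the other light chain of that cationic exchange system, best known in kidney and gut epithelium and in macrophages. Neither vehicle library had a count of it, against 157 counts in DCA replicate 1 and 386 in DCA replicate 2, or 4.85 and 1.60 CPM. At the level of DCA replicate 2, the lower of the pair, vehicle replicates 1 and 2 would have held 58.7 and 42.0 counts. The DCA mean was at least 32.9-fold higher than a floor of 3 counts in each vehicle library, and at least 16.3-fold higher with DCA replicate 2 alone. The sources used here do not give whether the counting took a read pair as 1 or as 2, and the bounds would be smaller in the second case. The unadjusted p was 0.0241 and the adjusted p 0.999 by edgeR. Without DCA replicate 1 the unadjusted p was 0.156, with limma 0.0657, and with the replicate block 0.0736. Because the gene passed the filter through the DCA libraries alone, it had to differ. Slc7a7 (chr14:54369442-54420068) overlaps Oxa1l, which was at 37.8, 45.3, 60.5, and 40.4 CPM, and the strand setting of the counting is not given in the sources used here, so its counts are uncertain. In the same libraries the 5 macrophage and monocyte markers summed to 23.97 to 24.7 CPM with vehicle and 7.30 to 10.2 CPM with DCA. Of that list 1 marker passed the filter, and Csf1r was at 0. The 5 epithelial markers summed to 8.28 to 13.5 CPM with vehicle and 7.24 to 8.996 CPM with DCA. The part of other cells in the Slc7a7 counts was not tested.

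Set side by side per kilobase, the 4 light chains that passed the filter summed to 42.5, 43.7, 26.4, and 43.1 CPM, and Slc3a2 stood at 72.2, 91.1, 82.5, and 94.3 CPM. The heavy chain exceeded the sum of these light chains 1.70-, 2.09-, 3.13-, and 2.19-fold. Slc7a11, left out of the rule, was not part of this sum, so the ratios and shares do not cover every light chain. DCA replicate 1 stood apart with the lowest sum, and the 3 other libraries were close to each other. The makeup of the sum differed as much between replicates as between treatments. Slc7a8 made up 24.1% of it in vehicle replicate 1 and 53.2% in vehicle replicate 2, against 24.4% and 35.7% in the DCA libraries. Slc7a5 made up 36.9% and 17.9% with vehicle and 26.7% and 28.6% with DCA. Slc7a7 contributed 8.08% and 1.63% in the DCA libraries.

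**Figure D2:**
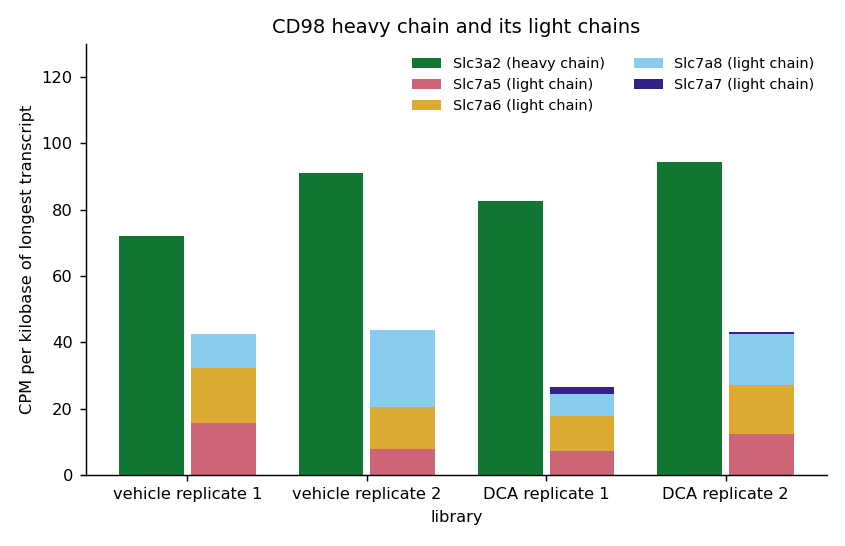
Level of the CD98 heavy chain Slc3a2 (left bar of each pair) and of the 4 light chains that passed the filter (stacked right bar) in each library, in CPM per kilobase of the longest transcript. Slc7a11 is not included. The heavy chain bar is higher than the stacked bar in every library, and the stack of DCA replicate 1 is the shortest at 26.4.

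Beyond the light chains, the carriers of arginine, lysine, and ornithine gave 1 gene whose DCA libraries both lay above the vehicle libraries. Slc7a1, the widespread carrier of cationic amino acids, was at 62.6, 55.6, 76.9, and 51.8 CPM. Its DCA libraries lay on either side of the vehicle libraries, with a log2 fold change of 0.12 (SE 0.29, adjusted p = 0.999). Slc7a3, a relative best known from the brain, had 72 and 4 counts with vehicle and 592 and 2275 counts with DCA. These are 1.97 and 0.153 CPM against 18.3 and 9.45 CPM, so that the libraries did not overlap between treatments. The mean was 1.06 ± 1.28 CPM with vehicle and 13.9 ± 6.26 CPM with DCA (SD, n = 2), a ratio of 13.1. The log2 fold change was 3.70, the SE 0.81 on the log2(CPM + 1) scale, the unadjusted p 0.0379, and the adjusted p 0.999.

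The Slc7a3 difference rested in part on single libraries. Its log2 fold change was 2.82 without vehicle replicate 2, the library with 4 counts, and 6.47 without vehicle replicate 1. With DCA replicate 1 left out the unadjusted p was 0.220, and with DCA replicate 2 left out 0.0741. Under the 9 alternatives that used every library it lay between 0.00494 and 0.0414, with an adjusted p of at least 0.211. Slc7a3 (chrX:101079146-101090452) overlaps Snx12, at 21.5, 53.5, 50.3, and 38.02 CPM. The library with more Snx12 had the lower Slc7a3 value of the vehicle pair and the higher one of the DCA pair, and the part of overlapping reads was not tested. Slc7a4, whose protein resembles the cationic carriers, was at 1.72, 30.8, 14.8, and 14.7 CPM, with near-equal DCA libraries between widely separated vehicle libraries.

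In the SLC1 family, Slc1a5, the exchanger that brings in glutamine and other small neutral amino acids, was the only gene to pass the filter. It was second to Slc3a2 in level per kilobase. Its values were 118, 89.8, 102, and 104 CPM, and both DCA libraries lay between the vehicle libraries. The log2 fold change was -0.01 (SE 0.19, adjusted p = 0.999). Its neutral relative Slc1a4, a carrier of alanine, serine, and cysteine, had 0, 0, 0, and 141 counts. At its level in DCA replicate 2, 0.586 CPM, the other libraries would have held 21.4, 15.4, and 19.0 counts, each above the limit of 3 counts. DCA replicate 1 was also at 0, so its counts came from 1 library. The glutamate and aspartate carriers Slc1a2 and Slc1a3 had counts almost only in vehicle replicate 1 (12 and 43 counts), and Slc1a1, Slc1a6, and Slc1a7 were at 0 throughout.

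Among the sodium-coupled neutral carriers of the SLC38 family, Slc38a2 separated the treatments, with the DCA libraries higher. Slc38a2 (chr15:96687392-96699728) takes up alanine, glutamine, and other small neutral amino acids, and its expression is known to respond to amino acid shortage. It was at 81.2, 63.3, 114, and 119 CPM, on 2970, 1657, 3690, and 28618 counts. The mean was 72.2 ± 12.7 CPM with vehicle and 116.5 ± 3.40 CPM with DCA (SD, n = 2), 1.61 times as high. The log2 fold change was 0.69, the SE 0.18, the unadjusted edgeR p 0.0432, and the adjusted p 0.999. The gap between treatments exceeded the gap within either treatment.

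Across the 9 alternatives with every library, the log2 fold change of Slc38a2 stayed between 0.66 and 0.70 and its unadjusted p between 0.0342 and 0.0493, with an adjusted p of at least 0.659. Leaving out a library gave log2 fold changes from 0.52 to 0.85. The unadjusted p was then 0.0296 without vehicle replicate 1, 0.134 without vehicle replicate 2, 0.137 without DCA replicate 1, and 0.172 without DCA replicate 2. Unlike Slc7a3, Slc7a7, and Slc43a1, the gene had at least 1657 counts in every library.

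Its close relative Slc38a1, also a glutamine carrier, was at 161, 161, 192, and 153 CPM. Its log2 fold change was 0.10 (SE 0.16, adjusted p = 0.999), and its vehicle replicates were almost equal. Slc38a10 was at 192, 95.2, 110.2, and 91.5 CPM, with vehicle replicate 1 far above the other 3 libraries. Its log2 fold change of -0.51 (SE 0.52, adjusted p = 0.999) became 0.05 without vehicle replicate 1. The lysosomal glutamine exporter Slc38a7 was at 5.08, 18.5, 31.2, and 13.9 CPM, and Slc38a9, the lysosomal arginine sensor upstream of mTORC1, at 32.2, 11.9, 17.2, and 9.40 CPM. In both, the libraries overlapped between treatments.

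Slc38a6 was at 3.31, 6.11, 1.14, and 0.802 CPM, with both DCA libraries below both vehicle libraries. Its locus overlaps Trmt5, which was at 22.9, 42.0, 22.5, and 30.5 CPM. Slc38a3, a glutamine carrier of liver and kidney, had 5, 0, 0, and 47 counts, Slc38a8 had 1, 0, 0, and 8 counts, Slc38a11 had 4 counts in vehicle replicate 1 alone, and Slc38a4 had 2 counts in DCA replicate 1 alone. Slc38a5 was at 0.

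The proton-coupled SLC36 carriers were low. Slc36a1, which exports small amino acids from lysosomes, was at 13.4, 3.66, 8.57, and 6.08 CPM, and Slc36a3 at 6.45, 1.26, 3.56, and 3.69 CPM. In both, the DCA libraries lay between the vehicle libraries. Slc36a4, a carrier of proline and tryptophan, was at 5.57, 8.17, 1.76, and 3.37 CPM, so both DCA libraries were below both vehicle libraries. Slc36a2 was at 0.

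In the SLC43 family, all 3 genes passed the filter, with unlike patterns over the libraries. Slc43a1 is a sodium-independent carrier of leucine and other large neutral amino acids. It was at 0 with vehicle, and had 32 counts in DCA replicate 1 and 788 in DCA replicate 2, or 0.989 and 3.27 CPM. The DCA mean was at least 21.7-fold higher than a floor of 3 counts in each vehicle library, and at least 10.07-fold higher with DCA replicate 1 alone. At the level of DCA replicate 1, the vehicle libraries would have held 36.2 and 25.9 counts. The unadjusted edgeR p was 0.0406 and the adjusted p 0.999. The unadjusted p became 0.136 with limma, 0.125 with the replicate block, 0.0772 without DCA replicate 1, and 0.223 without DCA replicate 2. Like Slc7a7, the gene passed the filter through the DCA libraries alone, and Slc43a1 (chr2:84838855-84863586) overlaps D930003E18Rik.

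Slc43a2, which carries the same kind of amino acids, was at 18.9, 28.8, 21.1, and 10.9 CPM, with DCA replicate 1 between the vehicle libraries and DCA replicate 2 below them. Slc43a3, which is known for moving purine nucleobases rather than amino acids, was at 18.6, 128, 110, and 55.2 CPM. The DCA libraries lay between the vehicle libraries, whose mean was 73.3 ± 77.4 CPM (SD, n = 2). Its log2 fold change of 0.17 (SE 1.45, adjusted p = 0.999) was 2.15 without vehicle replicate 2 (adjusted p = 0.281, unadjusted p 0.00318) and -0.66 without vehicle replicate 1.

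The remaining genes of the rule were at or near 0. Of the 20 genes under the filter, 10 had no count in any library, namely Slc1a1, Slc1a6, Slc1a7, Slc36a2, Slc38a5, Slc3a1, Slc7a10, Slc7a12, Slc7a13, and Slc7a14. Slc3a1, the heavy chain of the kidney cystine transporter, and its light chain Slc7a9 (2 counts in vehicle replicate 1) were both among the genes under the filter. Slc7a2, the inducible arginine carrier of macrophages and liver, had 32 counts in vehicle replicate 1 and 0 in the other libraries. Slc7a15 had 0, 1, 0, and 10 counts. At least 1 count fell on 26, 21, 22, and 25 of the 41 genes. By family, the filter was passed by 7 of 14 SLC7 genes, 6 of 11 SLC38 genes, 3 of 4 SLC36 genes, 3 of 3 SLC43 genes, 1 of 7 SLC1 genes, and 1 of 2 SLC3 genes.

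Taking the 21 tested genes as a set, 4 had an unadjusted p under 0.05 and were higher with DCA (19.0%), against 2.54% of all 11184 genes tested. These were Slc38a2, Slc7a3, Slc7a7, and Slc43a1. None was lower at that threshold, against 1.73% of all genes tested. No transporter gene had an adjusted p under 0.05 by edgeR, and neither did any of the 11184 genes tested (0%). DESeq2 gave 126 genes with an adjusted p under 0.05, with no transporter gene among them and an adjusted p of 0.0925 for Slc7a7. An exact permutation test of 2 against 2 libraries cannot give a two-sided p below 0.333. The libraries did not overlap, with DCA above, for the same 4 genes (19.0%, against 18.6% of all genes), and with DCA below for Slc36a4 and Slc38a6 (9.52%, against 14.7%). By separation of the libraries the transporter genes therefore stood near the background. Of the 4 genes, Slc7a7 and Slc43a1 had to differ once they passed the filter. Slc38a6 averaged 4.71 CPM with vehicle and 0.973 CPM with DCA, so it passed the filter through the vehicle libraries. The count of 4 fell when either DCA library was left out, rose without vehicle replicate 2, and did not change without vehicle replicate 1. Over all genes tested the count fell when either DCA library was left out and rose when either vehicle library was.

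The median log2 fold change of the 21 genes was -0.09, with 9 higher and 12 lower, beside a median of 0.01 over all genes tested. It turned positive, 0.13, without vehicle replicate 1 and 0.09 with limma or the replicate block. For 13 of the 21 genes (61.9%) the vehicle replicates differed by more than the treatment means did, as for 64.9% of all genes, and for 12 genes (57.1%) the DCA replicates did, as for 54.7% of all genes.

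**Figure D3:**
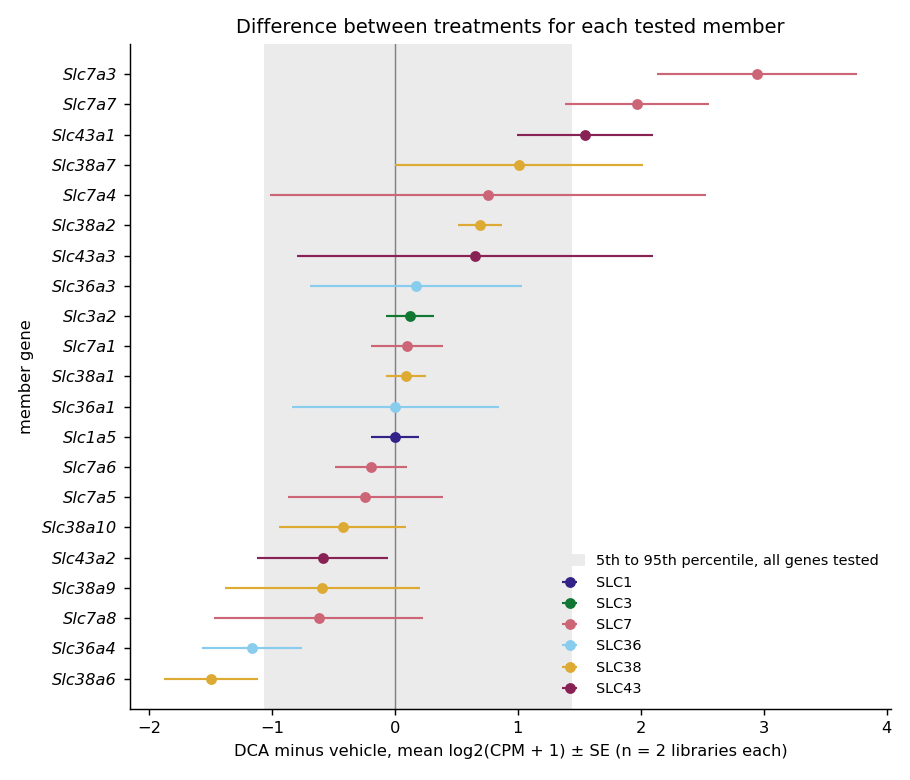
Difference between treatments for each tested transporter gene, as the DCA mean minus the vehicle mean of log2(CPM + 1) with its SE (n = 2 libraries each), colored by family, over a grey band from the 5th to the 95th percentile of all genes tested (-1.05 to 1.43). Slc7a3, Slc7a7, and Slc43a1 lie to the right of the band, Slc36a4 and Slc38a6 to the left of it, and Slc38a2 lies inside it with a short error bar.

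**Figure D4:**
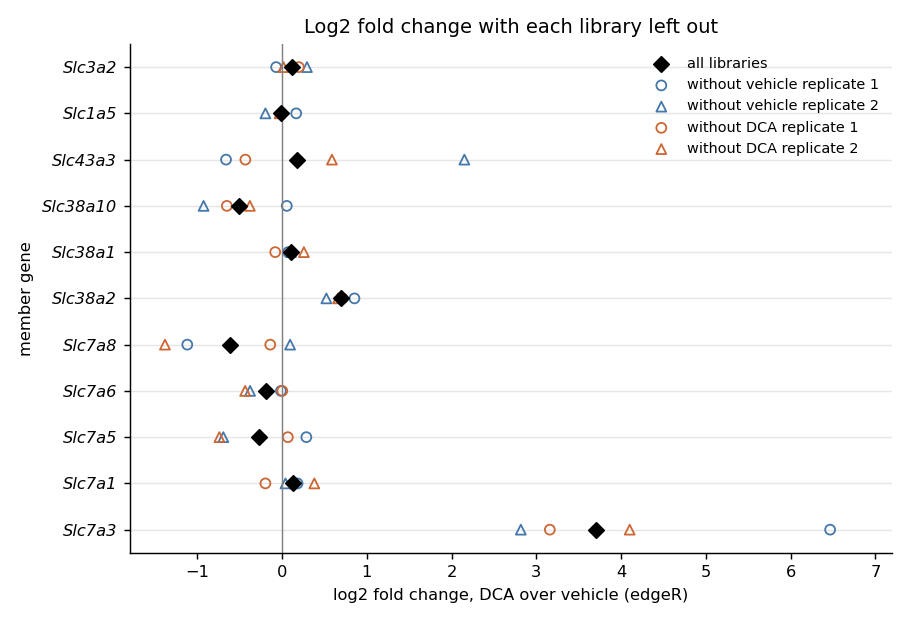
Log2 fold change (edgeR) of 11 transporter genes with all libraries (diamonds) and with each library left out (open symbols), without Slc7a7 and Slc43a1, whose fitted values are no bounds. Slc38a2 (0.52 to 0.85) and Slc7a3 (2.82 to 6.47) stayed above 0, and each of the 9 other genes crossed 0 when a library was left out.

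The rest of amino acid transport was described from 46 further genes, of which 32 passed the filter. They covered SLC6, SLC16, and SLC15 carriers of the plasma membrane, lysosomal, vesicular, and mitochondrial carriers, and regulators of transport. None had an unadjusted p under 0.05 in either direction, by edgeR, DESeq2, or limma, and none an adjusted one. The median log2 fold change was -0.08, with 12 higher and 20 lower. In the groups the tested genes, higher and lower, were 2 and 2 of the 14 plasma membrane carriers, 1 and 3 of the 4 lysosomal carriers, 0 and 2 of the 4 vesicular carriers, 4 and 6 of the 12 mitochondrial carriers, and 5 and 7 of the 12 regulators. Leaving out either vehicle library or DCA replicate 2 gave at least 1 of these genes an unadjusted edgeR p under 0.05. Their share of the 32 was below that over all genes tested when a vehicle library was left out. It was slightly above that share when DCA replicate 2 was left out.

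Atf4, the factor that raises transporter genes in amino acid shortage, was at 60.3, 80.8, 51.4, and 74.8 CPM, with DCA replicate 1 below the vehicle libraries and DCA replicate 2 between them. Its log2 fold change was -0.16 (SE 0.34, edgeR adjusted p = 0.999). These values are of RNA, and ATF4 protein and its activity were not measured in these libraries. Myc, which drives transporter genes in growing lymphocytes, was at 193, 143, 258, and 181 CPM, with a log2 fold change of 0.38 (SE 0.33, adjusted p = 0.999) and overlapping libraries. Libraries did not overlap for 6 of the 32 genes, which were named after their values were seen. In 3 (9.38%) the DCA libraries were above, against 18.6% of all genes tested, and in 3 (9.38%) below, against 14.7%, so neither share exceeded the background. Of these genes, Sfxn2 averaged 0.898 CPM with vehicle and 2.88 CPM with DCA, so it passed the filter through the DCA libraries. Both DCA libraries were above for the mitochondrial carriers Slc25a13, which exchanges aspartate for glutamate (14.3, 20.3, 32.5, and 24.2 CPM) and Sfxn2 (0.956, 0.840, 3.40, and 2.36 CPM) and for the ubiquitin ligase Rnf5 (112, 104, 136, and 144 CPM). Both were below for the mitochondrial glutamate carrier Slc25a22 (20.4, 25.7, 15.9, and 18.6 CPM) and the branched-chain amino acid carrier Slc25a44 (29.1, 32.0, 5.47, and 20.6 CPM) and for Arl6ip5 (88.01, 88.9, 60.2, and 66.2 CPM), a partner of the glutamate carrier Slc1a1.

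Markers of other cells were at levels that reached those of the low transporter genes. The 7 T cell markers, 2 of which passed the filter, summed to 19.9 to 34.7 CPM with vehicle and 15.5 to 27.0 CPM with DCA, and the 4 B cell markers, 1 of which passed it, to 2.41 to 31.4 CPM and 13.98 to 19.5 CPM. The 5 epithelial markers, 2 of which passed it, summed to 8.28 to 13.5 CPM and 7.24 to 8.996 CPM, with Krt20 at 0. Mast cell and basophil markers were at 0 with vehicle and 0.186 to 0.378 CPM with DCA, and ILC3 markers at 0 with vehicle and 0 to 1.48 CPM with DCA, with Il22, Il23r, and Ncr1 at 0. The part of other cells in the transporter values was not tested.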

How the data were processed

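RNA-Seq libraries were prepared by the authors with a SMART-Seq HT kit and Nextera XT indexing, and their paired reads were filtered with cutadapt 1.9 and aligned to mm10 with HISAT2 2.2.1. The authors deposited whole-number counts per gene, not divided by length or depth, in a table whose name refers to FPKM. The counting tool, its annotation and its strand setting are not given in the sources used here. Of the 27179 genes, 1275 had no symbol (0.137% to 0.173% of a library's counts) and could not be matched to the rule. Libraries held between 26564059 and 244165712 counts.

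Counts were scaled with TMM in edgeR 4.0.16 (R 4.3.3), and DCA was compared with vehicle by its quasi-likelihood test, two-sided, with Benjamini-Hochberg adjustment over the 11184 genes whose mean reached 1 CPM, and without a block for the replicate number. SDs are of CPM, and SEs come from log2(CPM + 1). Lengths come from GENCODE vM21 on GRCm38, and positions, overlapping genes, and promoter windows from RefSeq. The test was checked on counts simulated with the spread of these libraries, with 200 of 11184 genes given a log2 fold change of 2. It called 71 genes at an adjusted p under 0.05, and 68 of them were changed genes. Most changes of that size were therefore missed. Statistics were given for tested members with an unadjusted p under 0.05, the 8 highest per kilobase, and a fixed list of 9 carriers. Other members were given with library values and without a test, though a figure and the closing section also give differences for some of them. Of the further lists, genes with an unadjusted p under 0.05 were to be named, with Atf4 and Myc. Members and lists were chosen with earlier results of these data known. Alternatives were median-of-ratios and total-count scaling, DESeq2 1.42.0, limma 3.58.1 on log2(CPM + 1), no filter, a mean of at least 5 CPM, filterByExpr, DCA replicate 2 thinned to 31509261 counts, the replicate block, other gene lengths, and leaving out each library.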

Additional observations from a re-analysis of the deposited data

How the results depend on the processing

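The count of 4 transporter genes with an unadjusted p under 0.05 was 2 with limma, 2 with a mean of at least 5 CPM, which left Slc7a7 and Slc43a1 untested, and 2 with the replicate block. Slc38a2 and Slc7a3 kept an unadjusted p under 0.05 in all 9 alternatives with every library. With a library left out the count ranged from 0 to 7, while that over all genes tested ranged from 120 to 1500 (478 with every library). The median log2 fold change was 0.092 with limma, 0.092 with the replicate block, and -0.082 to 0.13 with a library left out. The count of 0 among the further genes became 0 to 4 with a library left out. No transporter gene had an adjusted p under 0.05 under any of the 13 alternatives. Of the genes given with statistics, log2 fold changes crossed 0 only with a library left out, over -0.20 to 0.17 for Slc1a5, -0.082 to 0.26 for Slc38a1, -0.93 to 0.055 for Slc38a10, -0.071 to 0.29 for Slc3a2, -0.66 to 2.15 for Slc43a3, -0.20 to 0.38 for Slc7a1, -0.74 to 0.29 for Slc7a5, -0.44 to 0.0020 for Slc7a6, and -1.38 to 0.094 for Slc7a8. Slc36a1, Slc36a3, and Slc7a4 were below 0 by edgeR (-0.22, -0.09, and -0.14) and above 0 on the log2(CPM + 1) scale of limma (0.0050, 0.17, and 0.76). In each of these genes the vehicle libraries lay further apart than the DCA libraries. The cause of the change in sign was not tested. Fits with a library left out leave 1 library in an arm, assumed to vary like the others. Same-numbered libraries did not deviate together (correlation 0.0197 across genes), so the replicate block pairs numbers only, and it changed no adjusted call. Over all genes, calls with an adjusted p under 0.05 were 0 by edgeR, 126 by DESeq2 and 36 with no filter. A gene at 0 may still have held up to 3 counts in a library.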
